A study of Mus musculus with 8 samples.

Results

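The genes described here encode 8 junction proteins of the blood-testis barrier: the claudins Cldn3, Cldn5 and Cldn11, occludin (Ocln), the junctional adhesion molecule F11r, the scaffold protein Tjp1 (ZO-1), the gap junction protein Gja1 (connexin 43) and N-cadherin (Cdh2). They were taken as every non-control microarray probe that carries one of these gene names, which gave 12 of the 41174 distinct probes on the array. Of these, 10 probes passed the filter on dim probes, which 33718 probes and 23349 gene names passed in all. Each of the 8 genes had at least 1 such probe, and the other 2 probes, both for Cdh2, did not pass.

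RNA was measured in whole testicular cells of male mice homozygous for a mutant Vrk1 allele (VRK1-/-, here called mutant, 4 samples) and of wild-type males (VRK1+/+, 4 samples). The VRK1 protein is a nuclear kinase that phosphorylates serine and threonine residues. The labels describe biological replicates from independent experiments, and no source used here gives the allele, strain or age of the mice. All cells of the testis contributed to the RNA, so a larger share of one cell type and more RNA per cell of that type cannot be told apart. The brighter Vrk1 probe read 4.78-fold lower in mutant samples (limma adjusted p = 0.000165), with every mutant array below every wild-type array.

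The blood-testis barrier is made by neighbouring Sertoli cells, the somatic nurse cells of the seminiferous tubule, and it closes off the compartment in which meiotic and later germ cells develop. Claudins, occludin and junctional adhesion molecules span the membrane and seal the gap between the cells, ZO proteins tie them to actin, connexins form channels between cells, and cadherins hold the cells together. In the Sertoli cell these junctions share one site with the ectoplasmic specialization, an actin-rich adhesion structure particular to the testis. Several of these proteins are also made in endothelial and epithelial cells.

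The probes are 60-base oligonucleotides, and the first 30 bases of the fitted ones are shown here to identify what was measured. The fitted Cdh2 probe is not shown. Positions are those of the array files, in the mouse build mm7, and the files used here do not say where in the transcript a probe lies. The Cldn11 probe lies at chr3:30976006-30976065, the brighter Ocln probe at chr13:97585859-97585918, the Cldn3 probe at chr5:133958589-133958648, the F11r probe at chr1:171433810-171433869 and the Gja1 probe at chr10:56207239-56207298. The Cldn5 probe lies at chr16:18327686-18327745, and the Tjp1 probes lie at chr7:61154784-61154843 and chr7:61171235-61171294. The dimmer Ocln probe spans 1194 bases of the genome, from 97627594 to 97628787 on chromosome 13, so its 60 bases do not form one unbroken stretch there.
Cldn11: atatgcaataaataatagtacgaagattat
Ocln, brighter probe: gaaactgctaaggcagttttggctaagtct
Ocln, dimmer probe: ccttacagacctgatgaattcaaacccaat
Cldn3: tgtccaagccgaatggacaaagaaacctcg
F11r: attagtcactcttcatttggctggaactac
Gja1: ctacacattaactcagaacttgtattctga
Cldn5: tcctactgagatcctgggggcactagatgc
Tjp1, brighter probe: tttcgctgtgtattactaagtttttatgag
Tjp1, dimmer probe: agccaaatctagcctatgaaccccaacttc

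Levels are given as log2 of the spot's signal over the 75th percentile of its array, so that 0 is the level of that percentile, and differences are mutant minus wild type on this scale. A probe was called where its adjusted p from limma, a linear model fitted to all 33718 probes, was under 0.05. A gene with several probes was called by the probe with the highest mean level. Of the 8 barrier junction genes, 5 rose in the mutant (Cldn11, Ocln, Cldn3, F11r and Gja1), none fell, and Cldn5, Tjp1 and Cdh2 did not pass. With 1 probe per gene name, 34.0% of all genes were called, 21.7% higher and 12.4% lower. The median difference over the 8 genes was 0.93, beside 0.05 over all fitted probes. In all 5 genes that rose, every mutant array lay above every wild-type array, a pattern that 21.9% of all gene names showed, while 15.4% showed the opposite one.

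**Figure D1:**
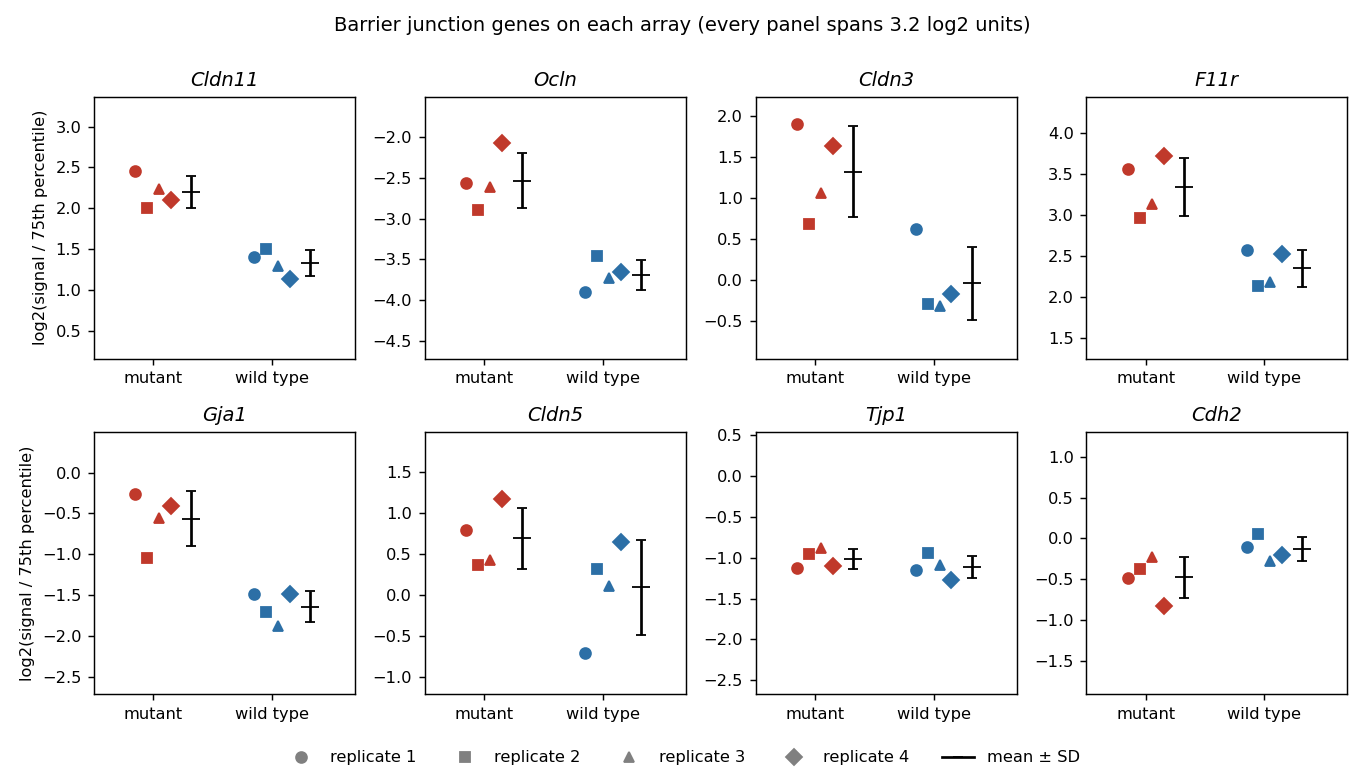
Level of each of the 8 barrier junction genes on each array, as log2 of the signal over the array's 75th percentile (y axis), for mutant (left, red) and wild type (right, blue). Symbols mark the replicate number, bars show the mean ± SD of 4 arrays, and each panel spans the same number of log2 units. For Cldn11, Ocln, Cldn3, F11r and Gja1 the groups do not overlap, whereas for Cldn5, Tjp1 and Cdh2 they do.

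Among the claudins, Cldn11 is the main strand-forming claudin of Sertoli cells, and mice without it form no such strands and are infertile. Its log2 level was 2.46, 2.01, 2.24 and 2.10 on mutant arrays 1 to 4, against 1.40, 1.50, 1.29 and 1.14 on wild-type arrays 1 to 4. Every mutant array was higher, and the wild-type arrays lay close together. The means were 2.20 ± 0.20 in the mutant and 1.33 ± 0.15 in wild type (SD, n = 4 each), a 1.83-fold rise (log2 difference 0.87, SE 0.15, 95% interval 0.54 to 1.20, limma adjusted p = 0.00401).

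Cldn3, a claudin of newly formed Sertoli cell junctions that responds to androgen in mice, had log2 levels of 1.91, 0.68, 1.06 and 1.64 in the mutant, against 0.62, -0.30, -0.32 and -0.17 in wild type. Mutant replicate 2 and wild-type replicate 1 nearly met, and the other arrays were well apart. Its difference was 1.36 (SE 0.30, 95% interval 0.69 to 2.04), a 2.57-fold rise with a limma adjusted p of 0.0106. Cldn5, known best as the claudin of brain endothelium and also made in the testis, had 0.79, 0.37, 0.43 and 1.17 in the mutant, against -0.71, 0.32, 0.11 and 0.65 in wild type. Its groups overlapped, with wild-type replicate 1 lowest of all 8 arrays. The difference of 0.60 (95% interval -0.06 to 1.25) did not pass (limma adjusted p = 0.137), and it was below 0 once arrays were scaled to Sertoli cell markers, as given further on.

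Occludin is a tight junction protein with a role in regulating the seal, and mice that lack it lose germ cells with age. By its brighter probe, Ocln had log2 levels of -2.56, -2.89, -2.62 and -2.08 in the mutant, against -3.90, -3.46, -3.73 and -3.65 in wild type. No mutant array came down to the wild-type range. The means were -2.54 ± 0.34 in the mutant and -3.68 ± 0.18 in wild type (SD, n = 4 each), a 2.21-fold rise (difference 1.14, SE 0.19, 95% interval 0.73 to 1.56, limma adjusted p = 0.00351). The dimmer Ocln probe, the one whose bases are split in the genome, was well above background on 3 mutant arrays and 1 wild-type array. It had -5.43 ± 0.24 in the mutant and -5.82 ± 0.41 in wild type, and its difference of 0.39 (95% interval -0.09 to 0.88, limma adjusted p = 0.183) did not pass and turned below 0 under 3 of the other scalings and corrections, which are given under the dependence on processing.

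F11r encodes junctional adhesion molecule A, an immunoglobulin-type protein of tight junctions that is also found on blood and germ cells. Its log2 level was 3.56, 2.96, 3.13 and 3.72 in the mutant, against 2.57, 2.13, 2.18 and 2.52 in wild type. Mutant replicates 1 and 4 were the highest. The difference was 0.99 (SE 0.20, 95% interval 0.55 to 1.44), a 1.99-fold rise (limma adjusted p = 0.00743).

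Gja1 encodes connexin 43, the main gap junction protein between Sertoli cells and between Sertoli and germ cells. Its probe was spotted 10 times on each array, and the mean of the spots was -0.26, -1.04, -0.55 and -0.41 on the log2 scale in the mutant, against -1.49, -1.71, -1.87 and -1.48 in wild type. Mutant replicate 2 was the lowest of its group and still above all wild-type arrays. The rise was 2.10-fold (difference 1.07, SE 0.19, 95% interval 0.65 to 1.49, limma adjusted p = 0.00467).

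The scaffold and the cadherin did not follow. Tjp1 encodes ZO-1, which binds claudins and occludin beneath the membrane. Its brighter probe had -1.13, -0.96, -0.88 and -1.10 in the mutant, against -1.15, -0.94, -1.09 and -1.27 in wild type, so the groups lay on top of each other. The difference was 0.09 (95% interval -0.20 to 0.39, limma adjusted p = 0.604), and its sign turned under scaling to the array median (-0.13). The dimmer Tjp1 probe had -3.16 ± 0.16 in the mutant and -3.54 ± 0.42 in wild type (SD, n = 4 each), a difference of 0.39 (95% interval -0.08 to 0.86, limma adjusted p = 0.176) that was below 0 under another background correction.

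Cdh2 encodes N-cadherin, the classical cadherin between Sertoli cells and between Sertoli and germ cells, and was on this scale the only one of the 8 genes with a lower mean in the mutant. Its log2 level was -0.48, -0.37, -0.23 and -0.82 in the mutant, against -0.11, 0.06, -0.28 and -0.20 in wild type. The groups overlapped through mutant replicate 3. The difference was -0.34 (SE 0.16, 95% interval -0.70 to 0.01) and did not pass (limma adjusted p = 0.121). Scaled to the array median, it was -0.56 with an adjusted p of 0.0255, and the 5 rises passed there too. That scaling called 13.7% of all gene names higher and 28.1% lower. Of the other Cdh2 probes, one was well above background on 1 mutant array and no wild-type array, and the other on no array, so neither was tested.

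**Figure D2:**
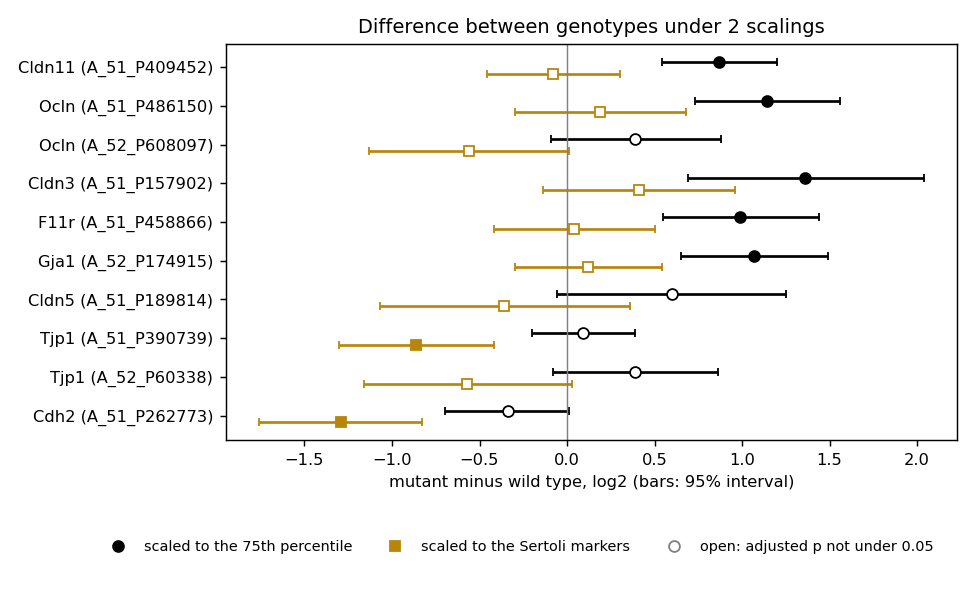
Difference between mutant and wild type in log2 units (x axis) for the 10 fitted probes, with 95% intervals as bars. Black circles are scaled to the 75th percentile of each array and gold squares to the mean of 20 Sertoli cell markers, and filled symbols have an adjusted p under 0.05. Under the first scaling 5 probes are filled, all to the right of 0, and under the second only Tjp1 and Cdh2, both to the left.

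The mutant arrays differed among themselves in a shared way. Mutant replicate 2 was the lowest mutant array for 6 of the 8 genes, the exceptions being Tjp1, lowest in replicate 1, and Cdh2, lowest in replicate 4. Mutant replicate 1 was highest for Cldn11, Cldn3 and Gja1, and replicate 4 for Ocln, F11r and Cldn5. Among wild-type arrays, replicate 3 was lowest for 3 of the 8 genes and replicate 2 highest for 4. The SD over 4 mutant arrays ran from 0.11 for Tjp1 to 0.56 for Cldn3, and over 4 wild-type arrays from 0.14 for Tjp1 to 0.58 for Cldn5.

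The upstream sequences of the 5 genes that rose are shown because these genes rose together. Each line gives the 250 bases before the gene's transcription start, taken from RefSeq on build GRCm38.p6, in the direction of transcription. They lie at chr3:31149670-31149919 (plus strand) for Cldn11, chr13:100552719-100552968 (minus strand) for the first of 2 Ocln starts, chr5:134985964-134986213 (plus) for Cldn3, chr1:171437311-171437560 (plus) for F11r and chr10:56377050-56377299 (plus) for Gja1. Capitals mark matches on either strand to the GC box GGGCGG, the CCAAT box CCAAT and the AP-1 motif TGANTCA, where N is any base. No marked match shares bases with another.
Cldn11: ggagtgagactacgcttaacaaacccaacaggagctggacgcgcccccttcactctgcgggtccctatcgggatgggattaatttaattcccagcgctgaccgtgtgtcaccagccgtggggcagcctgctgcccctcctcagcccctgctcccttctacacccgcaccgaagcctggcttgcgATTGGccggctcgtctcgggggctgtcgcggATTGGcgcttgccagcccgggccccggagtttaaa
Ocln: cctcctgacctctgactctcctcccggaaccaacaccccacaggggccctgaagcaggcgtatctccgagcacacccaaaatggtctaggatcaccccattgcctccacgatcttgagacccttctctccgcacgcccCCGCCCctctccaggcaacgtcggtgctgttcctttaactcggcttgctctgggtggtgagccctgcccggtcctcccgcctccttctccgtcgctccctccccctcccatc
Cldn3: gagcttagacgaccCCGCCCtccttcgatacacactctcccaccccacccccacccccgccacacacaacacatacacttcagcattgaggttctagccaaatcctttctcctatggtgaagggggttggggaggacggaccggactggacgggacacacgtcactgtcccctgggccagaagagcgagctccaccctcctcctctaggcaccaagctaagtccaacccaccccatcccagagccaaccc
F11r: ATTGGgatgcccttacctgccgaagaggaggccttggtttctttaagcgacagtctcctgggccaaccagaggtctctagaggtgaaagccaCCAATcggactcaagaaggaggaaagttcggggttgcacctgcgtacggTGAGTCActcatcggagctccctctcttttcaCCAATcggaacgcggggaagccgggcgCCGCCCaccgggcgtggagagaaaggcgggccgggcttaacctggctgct
Gja1: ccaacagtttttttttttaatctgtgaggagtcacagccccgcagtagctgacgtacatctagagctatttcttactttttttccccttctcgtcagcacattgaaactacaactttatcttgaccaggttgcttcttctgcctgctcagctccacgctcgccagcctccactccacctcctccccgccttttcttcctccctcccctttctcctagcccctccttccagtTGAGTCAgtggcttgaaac

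No motif searched was found in all 5 windows, which for Ocln is that of its first start. The GC box had 1 match each upstream of Ocln, Cldn3 and F11r, and 32.9% of the 27025 RefSeq windows of the same length hold it. CCAAT had 2 matches upstream of Cldn11 and 3 upstream of F11r, beside a share of 34.5% of all windows. The AP-1 motif occurred 1 time upstream of F11r and 1 time upstream of Gja1, where 6.87% of all windows hold it. The E-box CANNTG also matched in F11r and Gja1 (66.0% of all windows) and the GATA motif AGATAA in Gja1 (10.3%). The letters AACAAT (a SOX motif) and TATAAA were in none of the 5 windows. The window of the second Ocln start held 1 CCAAT, 1 GC box and 2 E-box matches. Among genes that did not pass, the Cldn5 window held 2 CCAAT and 1 GC box matches and the Tjp1 window 2 GC boxes.

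The other tight junction genes moved both ways. Of 36 further genes on the array, 33 were fitted, of which 10 rose, 3 fell and 20 did not pass, with a median difference of 0.18. The balance depended on the scaling, with 7 that rose and 8 that fell under median scaling, and 5 that rose and 0 that fell with normexp. Over all gene names, 21.7% were called higher and 12.4% lower. These shares were 13.7% and 28.1% under median scaling, and 7.47% and 9.68% with normexp. The smallest p-values of the list belonged to cingulin (Cgn), Cldn10 and Pard6b. Cgn, a protein of the cytoplasmic plaque, rose 2.10-fold, Cldn10 rose 2.07-fold and Pard6b, a cell polarity adaptor, rose 2.13-fold. The Cgn probe had -0.94, -1.10, -0.98 and -0.72 in the mutant, against -1.63, -2.05, -2.04 and -2.29 in wild type (difference 1.07, limma adjusted p = 0.00295). Its further probes gave 1.01 (adjusted p = 0.0231) and 0.85 (adjusted p = 0.142). Cldn10 differed by 1.05 (adjusted p = 0.00371). Pard6b differed by 1.09 (adjusted p = 0.00506), while its further probes gave 1.31 (adjusted p = 0.0315) and 0.51 (adjusted p = 0.196).

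The other members of that list that rose were the claudins Cldn4 (0.72), Cldn6 (0.74), Cldn7 (0.75), Cldn18 (0.81), Cldn22 (0.69) and Cldn23 (1.08) and the atypical protein kinase C gene Prkci (0.79), named here after their values were seen. Cldn18 was well above background on 4 mutant arrays and 1 wild-type array, so it met the filter through the group in which it was higher, and its groups overlapped. With probes required well above background on all 8 arrays, 8 genes of this list rose, beside 5353 of all 28853 probes fitted under that filter. The 3 that fell were Sympk (-0.56), Csda (now Ybx3, -0.52) and Mpp5 (-0.43), and all mutant arrays lay below all wild-type arrays for each. Sympk encodes symplekin, which also works in the processing of messenger RNA ends, Csda a protein that binds Tjp1 as well as nucleic acids, and Mpp5 the polarity scaffold PALS1. Among genes that did not pass, those with the highest levels were the junctional adhesion molecules Jam3 (0.14, adjusted p = 0.476, with 0.51 and an adjusted p of 0.0308 at its other probe) and Jam2 (0.07, adjusted p = 0.792), and Pard6a (-0.27, adjusted p = 0.146). Cldn1 and Cldn16 were at background on all 8 arrays.

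Of the 25 adherens junction and ectoplasmic specialization genes, all fitted, 11 rose, 3 fell and 11 did not pass, with a median difference of 0.39. Over all gene names 21.7% rose and 12.4% fell. Under median scaling 7 of the 25 rose and 5 fell, beside 13.7% and 28.1% of all gene names. Itga6, the integrin subunit of the ectoplasmic specialization that is also carried by spermatogonial stem cells, rose 3.21-fold. It had 1.13, 0.41, 0.82 and 1.46 in the mutant, against -0.83, -0.84, -0.83 and -0.42 in wild type (difference 1.68, SE 0.22, limma adjusted p = 0.00156), and its further probes gave 1.56 and 1.47. Ctnna1, which encodes alpha-catenin, the link between cadherins and actin, had 3.64, 3.21, 3.56 and 3.31 in the mutant, against 2.61, 2.48, 2.52 and 2.28 in wild type (difference 0.96, adjusted p = 0.00286). Eps8, a regulator of actin bundles at the ectoplasmic specialization, differed by 0.75 (adjusted p = 0.00522). In all of these the groups were clear of each other.

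Further genes of the list that rose, named after their values were seen, were Zyx (1.05), Actr3 (0.80), Espn (0.74), Itgb1 (0.71), Vcl (0.63), Pvrl1 (0.52), Actn4 (0.48) and Ilk (0.44). The Pvrl1 groups overlapped, and Itgb1 and Vcl each had a further probe of the opposite sign that did not pass. The products of these genes include actin-binding and bundling proteins (Espn, Vcl, Actn4), a nectin (Pvrl1) and the integrin partner Itgb1. Those that fell were Ctnnd1 (-0.55), Pvrl3 (-0.47), which encodes the nectin that germ cells present to Sertoli cells, and Cdh3 (-0.43). The Ctnnd1 groups overlapped and its further probes had positive differences that did not pass. Beta-catenin (Ctnnb1), Arpc1a and plectin (Plec1) had the highest levels among those that did not pass, with differences of 0.39 (adjusted p = 0.0582), -0.32 (adjusted p = 0.0759) and -0.09 (adjusted p = 0.716).

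The other gap junction and desmosome genes gave few calls. Of 16 genes, all fitted, 2 rose, none fell and 14 did not pass, with a median difference of -0.04. The shares of all gene names were 21.7% higher and 12.4% lower. The direction of the calls turned with the processing, in this list and over all gene names. Median scaling called 3 of the list lower and 0 higher, beside 28.1% lower and 13.7% higher of all gene names. Normexp called 1 lower and 0 higher, beside 9.68% lower and 7.47% higher of all gene names. The 2 were Panx1, a pannexin channel (0.55, limma adjusted p = 0.0275), and Gja6, a connexin of the rodent testis (0.85, adjusted p = 0.0238), whose groups overlapped. Gjb1 followed by its p-value without passing (-0.46, adjusted p = 0.0550). The genes with the highest levels among those that did not pass were Gja7 (now Gjc1, -0.24), plakoglobin (Jup, -0.48) and Gja4 (-0.22), and no other connexin gene of this list reached the difference of 1.07 at Gja1.

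Of 28 fitted genes known to regulate the barrier, 18 rose, 1 fell and 9 did not pass, with a median difference of 0.70. Of all gene names 21.7% rose and 12.4% fell. The number of regulators that rose was 9 under median scaling, 10 with quantile normalization, 6 with normexp and 10 to 19 with single arrays left out. Of all gene names, 13.7% rose under median scaling and 7.47% with normexp. Of all 33718 fitted probes, 4405 rose with quantile normalization and 4782 to 7358 with single arrays left out, beside 7160 at first. The smallest p-values belonged to transcription factors of Sertoli cells. Wt1, needed for Sertoli cell identity, had 1.95, 1.42, 1.85 and 1.88 in the mutant, against 0.94, 0.60, 0.56 and 0.53 in wild type (difference 1.12, limma adjusted p = 0.00233). Etv5 differed by 0.91 (adjusted p = 0.00283), and its further probe gave 0.86 without passing (adjusted p = 0.0755). Sox8 differed by 1.11 (adjusted p = 0.00395), with 1.22 (adjusted p = 0.0069) at its further probe. By the brighter probe of each, all mutant arrays lay above all wild-type arrays. The transforming growth factor genes Tgfb1 (1.01), Tgfb2 (0.98) and Tgfb3 (0.80), named after their values were seen, also rose. Tgfb2 was well above background on 4 mutant arrays and 1 wild-type array, so it too met the filter through the group in which it was higher. The Tgfb3 groups overlapped. With probes required well above background on all 8 arrays, 16 regulators rose, beside 5353 of all 28853 probes fitted under that filter. The gene that fell was Dnm2, a dynamin of endocytosis (-0.82), although one of its further probes did not pass. Rps6 (-0.10), Frap1 (now Mtor, -0.40) and Rhoa (0.08) had the highest levels among those that did not pass.

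Markers of Sertoli cells moved with the barrier genes. Of 20 Sertoli cell markers, 3 of them also among the barrier regulators, 15 rose, none fell and 5 did not pass, with a median difference of 0.99. The shares of all gene names were 21.7% higher and 12.4% lower. The summed signal of the markers was 301 to 467 times the array's 75th percentile in the mutant and 125 to 242 times in wild type. Clu, which encodes clusterin and had the highest level of the list, differed by 1.09 (adjusted p = 0.00511). The mean log2 level of the markers was 2.12, 1.66, 2.01 and 1.95 on mutant arrays, against 1.18, 0.97, 0.97 and 0.82 on wild-type arrays. The mean of the 8 barrier genes was 0.54, 0.09, 0.32 and 0.53 on mutant arrays, against -0.34, -0.30, -0.46 and -0.31 on wild-type arrays. Mutant replicate 2 was the lowest mutant array for both, and for 14 of the 20 markers.

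**Figure D3:**
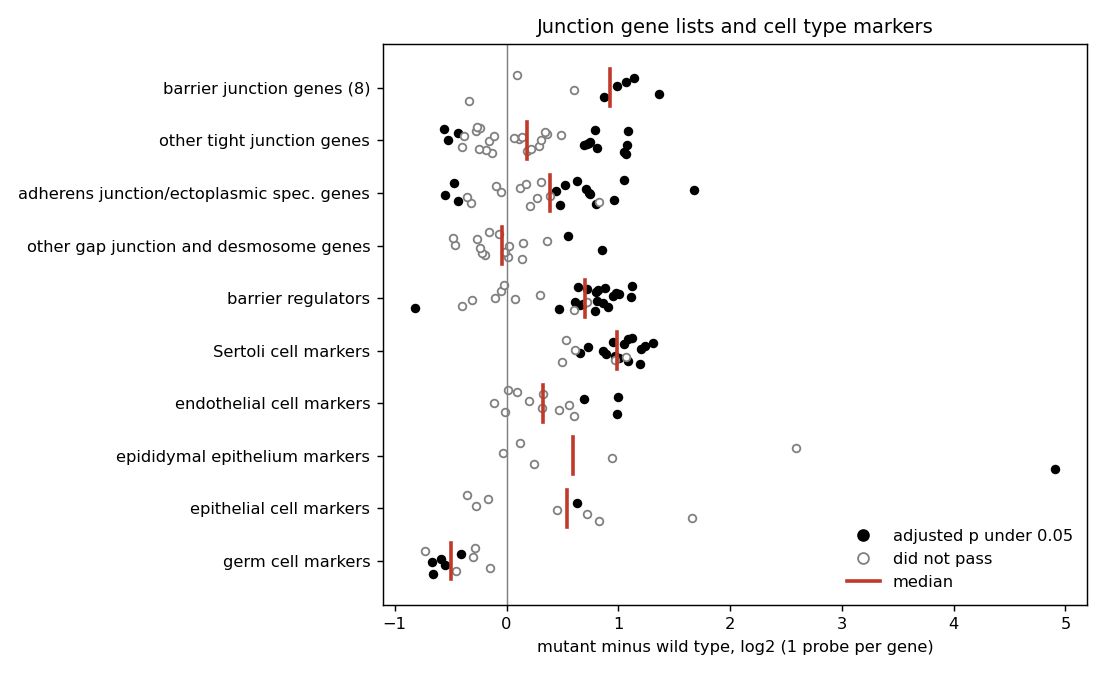
Difference between mutant and wild type in log2 units (x axis) for each fitted gene of the barrier junction genes, of the 4 lists of related genes and of the marker lists (rows), with filled points for an adjusted p under 0.05 and a red line at the median. The medians are 0.93 for the barrier genes, 0.99 for Sertoli cell markers and -0.50 for germ cell markers.

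To set the barrier genes against the Sertoli cell RNA in the same sample, each array was also scaled to the mean of its 20 Sertoli cell markers, a choice made after seeing the data. On that scale the differences of the 5 genes that rose were -0.08 for Cldn11 (95% interval -0.46 to 0.30), 0.19 for Ocln (-0.30 to 0.68), 0.41 for Cldn3 (-0.14 to 0.96), 0.04 for F11r (-0.42 to 0.50) and 0.12 for Gja1 (-0.30 to 0.54). None of the 5 passed, with limma adjusted p-values of 0.165 to 0.874, and their groups overlapped. This scaling subtracts the mean difference of the markers from every gene alike, so it shows how large each difference was beside that of the markers and leaves the order of the genes as it was. Tjp1 and Cdh2 were lower relative to the markers, by -0.86 (95% interval -1.30 to -0.42, adjusted p = 0.00257) and by -1.29 (-1.76 to -0.83, adjusted p = 0.000426), and all mutant arrays lay below all wild-type arrays for both. On this scale 67.1% of all gene names were called lower and 1.01% higher, and the median of all probes was -0.90. Cldn5 differed by -0.36 (95% interval -1.07 to 0.36, adjusted p = 0.356). Relative to the median of all probes, the 5 genes that rose were at 0.82 to 1.31, Cdh2 at -0.40 and Tjp1 at 0.04 on either scale.

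Markers of other cells that could contribute these transcripts are given beside the barrier genes. For these lists and the epididymal one below, the shares of all gene names were 21.7% higher and 12.4% lower. Of 13 endothelial markers 3 rose and none fell, and their summed signal was 7.89 to 14.4 in the mutant and 6.27 to 10.8 in wild type. The brightest, Cd34, differed by 0.60 (adjusted p = 0.135). Of 8 fitted epithelial markers 1 rose and none fell, with summed signals of 4.38 to 7.71 in the mutant and 4.59 to 6.21 in wild type, and Krt8, the brightest, differed by -0.27 (adjusted p = 0.310). Of 8 macrophage markers 6 rose and none fell, with Lyzs at 1.36 (adjusted p = 0.0104) and summed signals of 11.5 to 30.9 in the mutant and 8.44 to 9.38 in wild type. Of 5 fitted Leydig cell markers 2 rose and none fell, with Insl3 at 0.97 (adjusted p = 0.0287) and sums of 139 to 239 in the mutant and 72.0 to 131 in wild type. None of 6 peritubular myoid cell markers passed, with Acta2 at -0.31 (adjusted p = 0.439) and sums of 18.4 to 30.8 in the mutant and 22.6 to 34.0 in wild type. Of 10 germ cell markers 5 fell and none rose, with Prm1 at -0.30 (adjusted p = 0.263) and sums of 1210 to 1710 in the mutant and 1540 to 2060 in wild type, but 0 fell under quantile normalization or cyclic loess and 3 with normexp. Of all 33718 fitted probes, 3385 fell with quantile normalization and 2725 with cyclic loess, beside 3655 at first. With normexp 9.68% of all gene names fell. The part of all these cell types in the differences of the barrier genes was not tested.

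Of 11 markers of the epididymal epithelium on the array 6 were fitted, 1 rose and none fell, Lcn8 was at background on all 8 arrays, and the summed signal was 1.00 to 9.07 in the mutant and 0.643 to 1.16 in wild type. The brightest, Rnase10, differed by 0.12 (adjusted p = 0.692). Crisp1, a secreted protein of the epididymis named after its values were seen, had 2.50, -2.40, -4.20 and 2.80 in the mutant, against -5.56, -4.98, -5.23 and -5.16 in wild type. Mutant replicates 1 and 4 were far above the rest. They were also the highest for Ltf (1.22, -2.92, -3.46 and -0.42 in the mutant, against -2.98, -4.35, -4.09 and -4.51 in wild type; limma adjusted p = 0.0532). No such gap was seen at the other 4 fitted markers, such as Lcn9, which had -2.25, -2.16, -2.26 and -2.31 in the mutant, against -1.96, -2.05, -2.32 and -2.51 in wild type. Mutant replicates 1 and 4 were each the highest mutant array for 2 of the 6. The same arrays were highest for the keratin gene Krt18, also named after its values were seen (0.87, -1.72, -2.09 and 0.62 in the mutant, against -2.59, -1.96, -2.13 and -2.29 in wild type). The 8 epithelial markers did not share this. Replicate 1 was the highest mutant array for 4 of them and the lowest for 3, and replicate 4 the highest for 2 and the lowest for 2. Mutant replicates 1 and 4 were also the highest arrays for Ocln, Cldn3, F11r, Gja1 and Cldn5. Such a ranking was not particular to these genes. Replicate 1 was the highest mutant array for 10 of 20 Sertoli cell, 2 of 13 endothelial and 6 of 8 macrophage markers. Replicate 4 was the highest mutant array for 7, 10 and 2 of them. Of 10 germ cell markers, replicate 1 was highest for 1 and replicate 4 for 0.

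**Figure D4:**
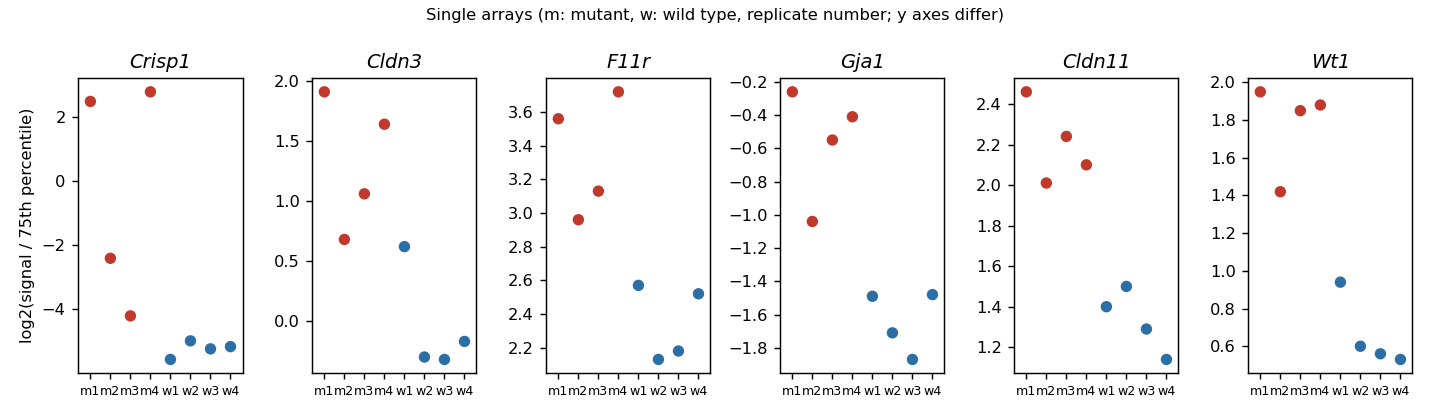
Level on each array, as log2 of the signal over the 75th percentile (y axes differ between panels), of the epididymal gene Crisp1, 4 barrier junction genes and the Sertoli cell gene Wt1, for mutant arrays m1 to m4 (red) and wild-type arrays w1 to w4 (blue). Crisp1 is at 2.50 and 2.80 on m1 and m4 and at or below -2.40 elsewhere, while Cldn11 and Wt1 are above the wild-type arrays on all 4 mutant arrays.

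Without mutant replicates 1 and 4, 2 mutant arrays were set against 4 wild-type arrays. Cldn11 (0.79, limma adjusted p = 0.0491) and Ocln (0.93, adjusted p = 0.0417) passed there. Cldn3 (0.91, adjusted p = 0.11), Gja1 (0.84, adjusted p = 0.0647) and F11r (0.70, adjusted p = 0.077) did not, and 4.06% of all gene names were called higher and 0.784% lower. The 7 genes with a higher mean in the mutant kept that direction. Of the other lists, 0 tight junction genes, 2 adherens junction genes, 0 gap junction genes, 3 barrier regulators and 3 Sertoli cell markers rose in this comparison, and none of their genes fell. With each single array left out in turn, the 5 genes passed in all 8 fits, with the lowest difference at 0.79 for Cldn11, 0.99 for Ocln, 1.17 for Cldn3, 0.87 for F11r and 0.97 for Gja1. With normexp, another background correction, Cldn11, Cldn3, F11r and Gja1 rose and Ocln did not pass (0.29, adjusted p = 0.243), where 7.47% of all gene names were called higher and 9.68% lower.

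**Figure D5:**
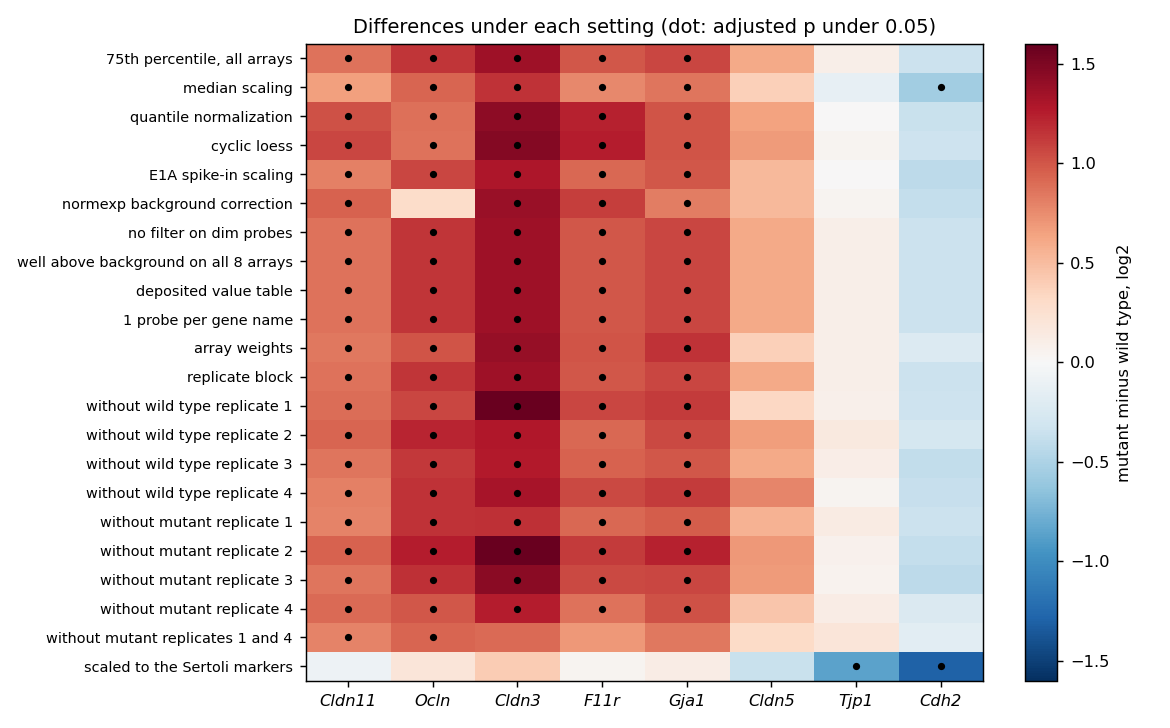
Difference between mutant and wild type in log2 units (colour) for the 8 barrier junction genes (columns) under each scaling, correction, filter or set of arrays (rows), with a dot where the adjusted p was under 0.05. The 5 genes at the left are above 0 in every row but the last, where Cldn11 is at -0.08, and Cdh2 at the right is below 0 in every row.

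The genes whose profile over the 8 arrays lay closest to each barrier gene were found among 14426 genes by the root mean square distance of the centred log2 values. The closest to Cldn11 were Rnf145 (0.06), Eif2ak3 (0.06) and Acbd4 (0.07), and those to Gja1 were Ctsz (0.05), Armcx3 (0.06) and Gsta2 (0.06). For F11r they were Ptpn11 (0.08), Ninj1 (0.09) and Ppm1m (0.09). Ocln and Cldn3 had more distant neighbours, Cmtm8 (0.11), Dio3 (0.13) and Sema5a (0.14) for Ocln and Glb1l2 (0.15), Lrrn1 (0.19) and Tmie (0.19) for Cldn3. Within the barrier genes that rose, F11r and Gja1 were the closest pair, at 0.14, and Cldn3 and Ocln the most distant, at 0.46.

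Each genotype was hybridised on a slide of its own and scanned on its own, and the effect of the slide and that of the genotype cannot be told apart. The arrays held 83.32% to 86.45% of probes well above background in the mutant and 73.25% to 77.49% in wild type, and the 75th percentile itself was 927.87 to 1124.3 in the mutant and 679.65 to 790.02 in wild type. Correlations between arrays were 0.982 to 0.995 within the mutant, 0.953 to 0.984 between genotypes and 0.966 to 0.995 within wild type. The number of arrays limits the precision.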

How the data were processed

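Total RNA was labelled with Cy3 and hybridised to 1 single-colour Agilent array per sample, per the labels' protocols. Signals came from Agilent Feature Extraction 9.5.3.1, per the submitters' processing notes. The deposited intensity of each spot is background-subtracted and detrended within its array, with no scaling between arrays, per the file headers. Samples were grouped by the genotype in their labels. The barrier genes and the gene lists were chosen with earlier results of these data known.

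Each intensity was taken relative to the 75th percentile over the array's non-control features and set to at least 0.01437 of it before taking log2 (floor -6.12). Outlier spots were dropped and spots of 1 probe averaged. A probe was fitted if at least 4 of the 8 arrays read it well above background and each group had at least 3 values. The model was limma's lmFit and eBayes (version 3.58.1, R 4.3.3) with genotype as its single term, two-sided, with Benjamini-Hochberg adjustment over all fitted probes and a threshold of 0.05. The procedure was tested on simulated data.

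Named were Vrk1, every probe of the 8 genes, in each list of related genes the 3 with the smallest p and up to 3 of the highest level that did not pass, the brightest fitted gene of each marker list, and the 3 nearest profiles of each barrier gene that passed. Gene names are those of the array files, updated by RefSeq accession for 22951 probes. Upstream sequences come from RefSeq (GRCm38.p6) and probe sequences from the array files. Scaling, background correction, filter, array weights, a replicate block and left-out arrays were tried as alternatives.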

Additional observations from a re-analysis of the deposited data

Results flagged for a closer look

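Of 20 sets of 4 arrays (10 fitted probes in each genotype), 1 held an array far from the other 3. Cldn3 was at 0.62 on wild-type replicate 1, and the nearest of the other wild-type arrays was at -0.17, a gap of 0.842 of the group's range, above Dixon's critical value for 4 samples. Chance alone flags about 1 in 20 such sets. Without this array the Cldn3 difference was 1.58.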

How the results depend on the processing

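The 5 rises passed in all 8 fits that left out 1 array, in which the count of called probes ran from 6448 (without mutant replicate 3) to 11769 (without wild-type replicate 4), beside 10815 with all arrays. It was 6796 without mutant replicate 1, 7045 without mutant replicate 4 and 6937 without wild-type replicate 3. The count of called probes was 5189 with normexp background correction, 17739 with array weights, 1539 without mutant replicates 1 and 4, where 2 barrier genes were called, and 22810 with scaling to the Sertoli cell markers, where 2 were called, both lower. Normexp, run with an offset of 50 added to the signals, left Ocln at 0.29 (limma adjusted p = 0.243), and the cause was not tested. Scaling to the array median called 6 barrier genes, Cdh2 among them.

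Signs turned for the brighter Tjp1 probe with median scaling (-0.13), for the dimmer Ocln probe with quantile normalization (-0.05) and normexp (-0.50), and for the dimmer Tjp1 probe with normexp (-0.12). With scaling to the Sertoli cell markers they turned for Cldn5 (-0.36), Cldn11 (-0.08), the dimmer Ocln probe (-0.56) and both Tjp1 probes (-0.86 and -0.57). The median of all probes was 0.05 at first, -0.17 with median scaling and -0.23 with normexp, and the share of calls that were higher in the mutant was 66.2%, 33.9% and 40.3%. Relative to that median, the 5 rises were 0.82 to 1.31 with either scaling and 0.52 to 1.61 with normexp.

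Same-numbered arrays deviated together with correlations of 0.28, 0.24, 0.09 and 0.61, and same-numbered arrays held the same position on their slides. The labels give no shared animal or day, and the third correlation is under 0.1, the limit set for every pair, so the unblocked values stand, although replicate 4 in particular deviated together. With the replicate number as a block, 15155 probes and 5 barrier genes passed. The block raised the number of calls in general: of all 33718 fitted probes, 9242 were called higher with it and 7160 without it. Among the lists, the numbers that rose were 20 for Sertoli cell markers (15 without the block), 5 for Leydig cell markers (2), 2 for myoid cell markers (0), 3 for epithelial markers (1) and 2 for epididymal markers (1).

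The dimmer Ocln probe and 2 Cdh2 probes were too close to background to carry a result.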
